A study of Mus musculus with 6 samples.

Results

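The genes described here are 38 known mouse imprinted genes, chosen by symbol as genes known to be imprinted in the mouse. Their values did not enter that rule, but the choice was made with earlier results of these data known. They are 38 of the 46932 gene symbols in the deposited table of RPKM values (reads per kilobase of exon and per M reads). A gene was tested if 2 or more of the 6 libraries listed it at 1 RPKM or above. Of the 38, 28 passed that filter. By the allele usually read, 22 of the 38 are expressed from the paternal copy, 11 from the maternal copy and 5 (Grb10, Ube3a, Ppp1r9a, Blcap and Copg2) in a way that depends on the tissue. All libraries came from adult mice with 3 transgenic alleles. The first, mIns1-H2b-mCherry, is a nuclear mCherry driven by an Ins1 promoter. The second, Sst-cre, is a Cre recombinase active where somatostatin is made. The third is a floxed YFP that Cre switches on for good, in that cell and in its descendants. Transdifferentiated cells carried both mCherry and the YFP lineage label, beta cells carried mCherry and delta cells carried YFP. Each population was sorted from pooled islets of 10 to 12 animals, with 1 male pool (replicate 1) and 1 female pool (replicate 2), so n = 2 libraries a group. Per the labels' protocols, all libraries were made after overnight culture in 5.5 mM glucose. The comparison asks how far insulin-reporter cells of delta lineage resemble beta and delta cells of the same islets. The mCherry label marks Ins1 promoter activity and the YFP label marks past or present Sst-cre activity, so neither label is a direct test of what a cell has become. Below, the values of a group are given for the male pool and then for the female pool.

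Imprinted genes are read mainly or only from the copy inherited from 1 parent. They lie in clusters, and a differentially methylated control region, marked in the egg or sperm, sets which copy of the genes around it is active. Many encode regulators of growth, placental and metabolic functions, several are long noncoding RNAs, and some are known to act in beta-cell number or insulin secretion. The RPKM values add up reads of both parental copies, so they give the level of a gene and say nothing about which copy was read.

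The libraries held between 10.9 and 21.6 M reads, recovered from the deposited values. Ins2 took 17.9% and 18.6% of the summed RPKM in transdifferentiated cells, 41.3% and 34.8% in beta cells and 0.305% and 0.360% in delta cells. Over the 13022 genes tested, the median log2 fold change was 0.32 in transdifferentiated against beta cells, -0.03 in transdifferentiated against delta cells and -0.36 in beta against delta cells. Median-of-ratios scaling, which divides each library by a factor that centres most genes, brought these medians to -0.0017, -0.0056 and -0.018, and values after scaling are given where they change a call or a direction. The 5 delta markers (Sst, Hhex, Rbp4, Ghsr and Ptprz1) summed to 13507 and 13590 RPKM in transdifferentiated cells, 79.7 and 96.6 RPKM in beta cells and 51785 and 60684 RPKM in delta cells. The 5 alpha markers used summed to 1799 and 2594 RPKM in transdifferentiated cells, 461 and 644 RPKM in beta cells and 15147 and 16518 RPKM in delta cells. The PP markers Ppy and Pyy, hormone genes of another islet cell type, summed to 11877 and 12041 RPKM in transdifferentiated cells, 802 and 558 RPKM in beta cells and 36498 and 37076 RPKM in delta cells, the order that most imprinted genes also had. Acinar markers, 7 genes, summed to 1842 and 64.4 RPKM in transdifferentiated cells, 6915 and 266 RPKM in beta cells and 501 and 279 RPKM in delta cells. The 8 mesenchymal markers, of a cell type in which many imprinted genes are abundant, never summed to more than 0.639 RPKM, and no value of a single one exceeded 0.275 RPKM. The 6 macrophage markers summed to 44.3 and 45.6 RPKM in transdifferentiated cells, 80.04 and 96.4 RPKM in beta cells and 73.4 and 87.9 RPKM in delta cells. Of the 5 tested, 4 (Cd68, Csf1r, Lyz2 and C1qb) were lower in transdifferentiated than beta cells, where 8.46% of all genes were. After scaling all 5 were lower, where 26.1% of all genes were. Csf1r, Lyz2 and C1qb reached 1 RPKM only in the beta libraries, so they were tested only because they were high there. Lyz2 was at 0 and 0.145 RPKM in transdifferentiated cells, 5.82 and 7.99 RPKM in beta cells and 0 in both delta libraries, and C1qb at 0.220 and 0.843 RPKM in transdifferentiated cells, 9.76 and 12.3 RPKM in beta cells and 0.0542 and 0.0586 RPKM in delta cells. C1qa was at 29.4 and 32.6 RPKM in transdifferentiated cells, 34.9 and 40.5 RPKM in beta cells and 59.3 and 76.9 RPKM in delta cells. It was lower in beta than delta cells (limma, -0.83, SE 0.16, adjusted p = 0.00423), whereas the other 4 tested were higher. The endothelial markers summed to at most 8.35 RPKM. The part of alpha, PP, acinar, macrophage or other cells in the levels of the imprinted genes was not tested, and in sorted bulk RNA fewer cells of a type and less RNA per cell cannot be told apart.

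Most of the imprinted genes that were tested were lower in beta cells than in both populations that carried the delta-lineage label. In transdifferentiated against beta cells, 20 of the 28 were higher and 1 (Igf2) was lower, where 42.5% of all 13022 genes were called higher and 8.46% lower (limma on log2(RPKM + 1), 2-sided, Benjamini-Hochberg adjusted p under 0.05). Their median log2 fold change was 1.33, against 0.32 over all genes. After scaling, 18 were higher and 4 were lower, with a median of 1.01, where 27.8% of all genes were higher and 26.1% were lower. In transdifferentiated against delta cells none of the 28 was higher and 9 were lower, where 5.53% of all genes were higher and 7.2% lower. Their median there was -0.25. Scaling left these counts at 0 and 9, where 5.94% and 6.43% of all genes were higher and lower. At an unadjusted p under 0.05 in limma the counts against delta cells were 2 higher (Nap1l5 and Rasgrf1) and 12 lower. At that threshold 3466 of the 13022 genes passed in either direction. In beta against delta cells 2 (Igf2 and Rasgrf1) were higher and 24 were lower, where 11.7% of all genes were higher and 46.3% lower. Their median was -1.43. After scaling, 3 were higher and 20 lower in that comparison, where 27.8% and 29.7% of all genes were. Both transdifferentiated libraries lay above both beta libraries for 24 of the 28 and below for 2, where 58.5% and 17.5% of all genes did. They lay above both delta libraries for 8 and below for 16, where 27.6% and 35.8% of all genes did. Both beta libraries lay below both delta libraries for 25 and above for 2, where 60.9% and 20.1% of all genes did. Groups that do not overlap are thus common over all genes. The 3 comparisons share libraries, so their counts are not separate evidence. Peg10, Mest, Sgce and Asb4 were under 1 RPKM in both beta libraries. They passed the filter only through the transdifferentiated and delta libraries, so their calls against beta cells are no separate support for lower levels in beta cells.

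**Figure D1:**
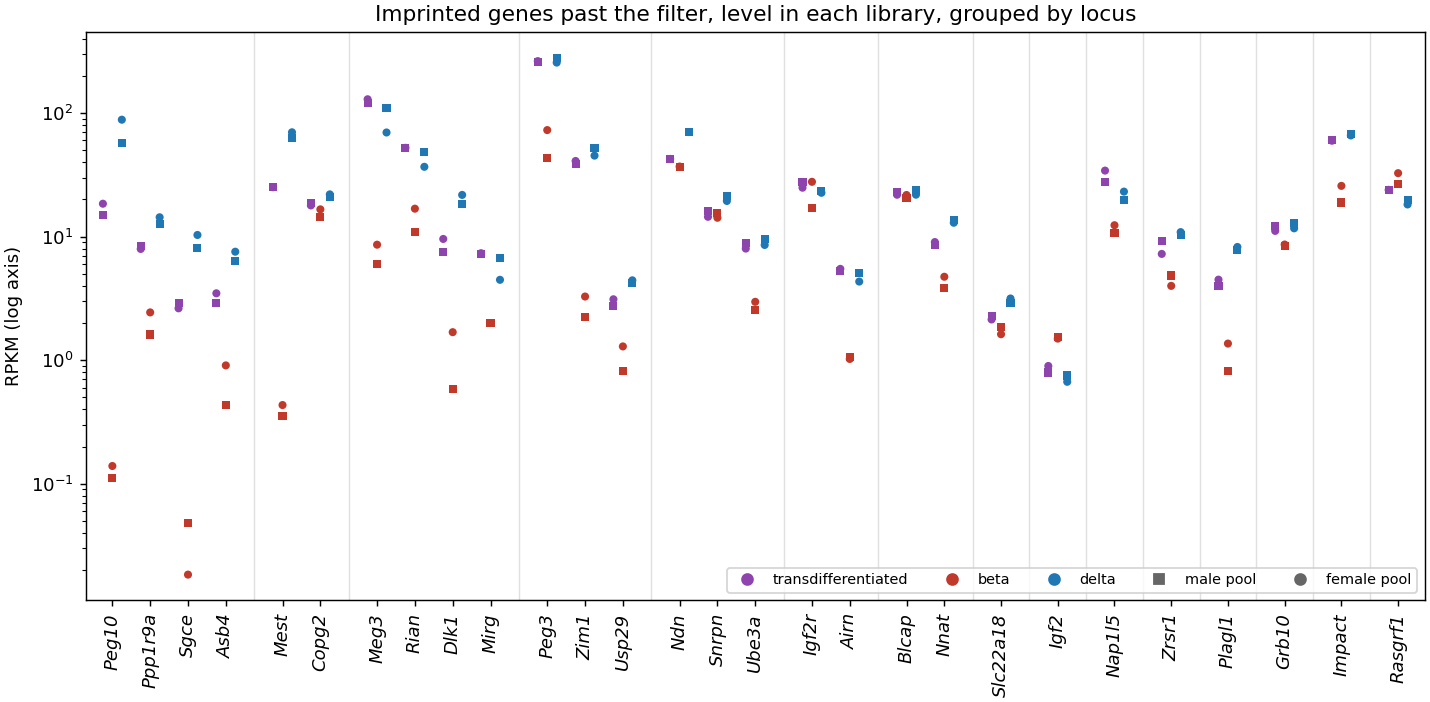
RPKM (log axis) of the 28 imprinted genes past the filter in each of the 6 libraries, grouped by locus, with squares for male and circles for female pools. Beta libraries (red) sit lowest for most genes, from 0.0184 RPKM for Sgce to 72.7 RPKM for Peg3, while Igf2 and Rasgrf1 were highest in beta cells.

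Summed over the 38 genes, imprinted transcripts made up 834 and 852 RPKM in transdifferentiated cells, 254 and 324 RPKM in beta cells and 995 and 952 RPKM in delta cells. Peg3 alone held 31.0% and 30.8% of that sum in transdifferentiated cells, 17.1% and 22.4% in beta cells and 27.9% and 26.8% in delta cells. Ndn took 5.08% and 4.99% in transdifferentiated cells, 14.4% and 11.4% in beta cells and 7.04% and 7.35% in delta cells, the largest share of any group in beta cells.

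Control regions of imprinted clusters are bound in the mouse by the zinc finger protein ZFP57 at the hexamer TGCCGC when its CpG is methylated. On the other strand this hexamer reads GCGGCA. The 250 bases before each annotated start in RefSeq (GRCm38.p6) were searched on both strands, and 32 of the 38 genes had such a window. Of the 32, 6 held the hexamer in at least 1 window (Mest, Copg2, Nap1l5, Zim1, Plagl1 and Meg3), where 9.84% of the 27025 genes with a window did. The windows of 5 of them, which were called higher in transdifferentiated than in beta cells, are given 5′ to 3′ on the strand of the gene, with the hexamer in capitals. Mest lies at chr6:30737800-30738049 (+), Nap1l5 at chr6:58907127-58907376 (-), Zim1 at chr7:6696433-6696682 (-), Plagl1 at chr10:13090582-13090831 (+) and Meg3 at chr12:109540746-109540995 (+).
Mest: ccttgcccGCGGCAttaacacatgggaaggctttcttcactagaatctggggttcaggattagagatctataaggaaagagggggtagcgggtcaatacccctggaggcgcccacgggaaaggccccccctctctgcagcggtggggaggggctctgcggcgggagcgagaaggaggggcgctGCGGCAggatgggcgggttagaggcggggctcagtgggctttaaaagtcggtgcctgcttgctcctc
Nap1l5: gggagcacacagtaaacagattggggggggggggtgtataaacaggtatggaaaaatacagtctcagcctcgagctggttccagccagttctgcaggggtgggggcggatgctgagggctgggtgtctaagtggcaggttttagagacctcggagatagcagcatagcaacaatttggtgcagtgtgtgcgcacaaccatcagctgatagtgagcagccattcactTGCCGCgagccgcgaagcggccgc
Zim1: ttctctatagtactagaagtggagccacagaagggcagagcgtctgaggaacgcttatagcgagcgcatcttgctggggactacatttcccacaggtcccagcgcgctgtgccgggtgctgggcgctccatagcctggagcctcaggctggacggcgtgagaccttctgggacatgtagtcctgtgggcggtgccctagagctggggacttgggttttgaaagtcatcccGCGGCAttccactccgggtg
Plagl1: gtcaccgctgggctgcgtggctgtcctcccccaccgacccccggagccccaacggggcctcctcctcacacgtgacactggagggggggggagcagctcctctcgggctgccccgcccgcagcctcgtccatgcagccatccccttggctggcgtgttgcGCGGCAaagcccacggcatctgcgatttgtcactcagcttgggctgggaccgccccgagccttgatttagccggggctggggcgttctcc
Meg3: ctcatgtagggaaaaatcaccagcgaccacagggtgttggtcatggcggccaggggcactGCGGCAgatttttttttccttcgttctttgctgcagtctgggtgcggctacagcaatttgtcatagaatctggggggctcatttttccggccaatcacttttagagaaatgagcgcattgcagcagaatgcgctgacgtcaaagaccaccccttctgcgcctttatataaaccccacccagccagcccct
The Mest window holds the hexamer 2 times and the other 4 hold it 1 time each. A match is a description of these letters, and the methylation of these windows was not measured in this series.

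The 4 tested members of the cluster on chromosome 6 around Peg10 were lowest in beta cells, intermediate in transdifferentiated cells and highest in delta cells. Peg10 (chr6:4747306-4760517, plus strand) is a gene domesticated from a retrotransposon and needed in the placenta. It stood at 14.9 and 18.4 RPKM in transdifferentiated cells, 0.111 and 0.139 RPKM in beta cells and 56.8 and 88.2 RPKM in delta cells. The beta values rest on 16 and 19 reads, and the 3 groups did not overlap. Its log2 fold change was 3.97 (SE 0.21, adjusted p = 0.000125) in transdifferentiated against beta cells and -2.03 (SE 0.21, adjusted p = 0.00256) in transdifferentiated against delta cells. Sgce (chr6:4674350-4747207, minus strand) encodes epsilon-sarcoglycan and starts next to Peg10 on the opposite strand. Sgce had 2.92 and 2.63 RPKM in transdifferentiated cells, 0.0481 and 0.0184 RPKM in beta cells (11 and 4 reads) and 8.11 and 10.3 RPKM in delta cells. Sgce thus followed its neighbour, close to the detection limit in beta cells and in between in transdifferentiated cells. The log2 fold changes were 1.87 (SE 0.14, adjusted p = 0.000263) against beta and -1.43 (SE 0.14, adjusted p = 0.00214) against delta cells. Ppp1r9a, encoding the actin-binding neurabin, was at 8.40 and 7.94 RPKM in transdifferentiated cells, 1.61 and 2.44 RPKM in beta cells and 12.6 and 14.3 RPKM in delta cells. Asb4 is a maternally expressed gene for an ankyrin-repeat protein of ubiquitin ligase complexes. It was at 2.88 and 3.48 RPKM in transdifferentiated cells, 0.436 and 0.908 RPKM in beta cells and 6.33 and 7.54 RPKM in delta cells. Both were called in the same directions as Peg10, with log2 fold changes of 1.61 and 1.33 against beta cells and -0.66 and -0.92 against delta cells (adjusted p = 0.0403 for Ppp1r9a and 0.0191 for Asb4 against delta cells). The calls against delta cells of these 2 genes were lost with a pseudocount of 0.1 and without any 1 of the transdifferentiated or delta libraries, whereas those of Peg10 and Sgce held under all 10 alternatives.

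Mest (chr6:30723547-30748465), a paternally expressed gene for a hydrolase-like protein linked to growth of fat tissue, had the largest fold change against beta cells of the members tested on the log2(RPKM + 1) scale. With a pseudocount of 0.1 Peg10 was above it, at 6.21 against 5.68. The level of Mest was 25.1 and 25.1 RPKM in transdifferentiated cells, 0.353 and 0.434 RPKM in beta cells and 62.5 and 69.8 RPKM in delta cells. All 3 groups were apart. The log2 fold changes were 4.23 (SE 0.11, adjusted p = 1.36e-05) against beta and -1.36 (SE 0.11, adjusted p = 0.00105) against delta cells. Both calls held under all 10 alternatives. Mir335, the hairpin of miR-335 inside a Mest intron, was listed at 10.6 and 6.55 RPKM in transdifferentiated cells, 0 in both beta libraries and 9.62 and 3.25 RPKM in delta cells. Over its 98 bases these were 13 and 7 reads in transdifferentiated cells, 0 in beta cells and 16 and 5 reads in delta cells. Libraries of this kind do not measure the mature miRNA. Copg2, which overlaps the end of Mest on the other strand, encodes a coat protein of Golgi transport vesicles. It was at 18.6 and 17.9 RPKM in transdifferentiated cells, 14.3 and 16.6 RPKM in beta cells and 21.0 and 21.9 RPKM in delta cells. No call of Copg2 was made for transdifferentiated against either group (log2 fold changes 0.23 and -0.23), and its lower level in beta than delta cells was lost after scaling (adjusted p = 0.706). The exons of Mest and Copg2 overlap (23.1% of the Mest bases). No source used here says how the counting treated strand, so part of the reads of either gene cannot be assigned.

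The Dlk1-Meg3 cluster on chromosome 12 holds 3 maternal noncoding RNAs and the paternal genes Dlk1 and Rtl1. Meg3 (chr12:109541001-109571726) is a maternally expressed long noncoding RNA whose loss has been linked to poorer beta-cell function. Its level was 121 and 129 RPKM in transdifferentiated cells, 6.05 and 8.60 RPKM in beta cells and 110 and 69.5 RPKM in delta cells. Rian, which carries snoRNAs, stood at 52.1 and 52.2 RPKM in transdifferentiated cells, 10.9 and 16.8 RPKM in beta cells and 48.0 and 36.7 RPKM in delta cells. Mirg, which carries a cluster of miRNAs, had 7.28 and 7.33 RPKM in transdifferentiated cells, 2.01 and 1.998 RPKM in beta cells and 6.66 and 4.47 RPKM in delta cells. In all of these 3 maternal noncoding RNAs both transdifferentiated libraries lay above all 4 others. Over all tested genes, 27.6% had both transdifferentiated libraries above both delta libraries and 58.5% had them above both beta libraries. The fold changes of these 3 RNAs against beta cells were called, at 3.94 (SE 0.24, adjusted p = 0.000162) for Meg3, 1.87 (SE 0.21, adjusted p = 0.000861) for Rian and 1.47 (SE 0.17, adjusted p = 0.000888) for Mirg. Against delta cells they did not pass the test, at 0.51 (SE 0.24, adjusted p = 0.229), 0.31 (SE 0.21, adjusted p = 0.42) and 0.36 (SE 0.17, adjusted p = 0.235). The female delta library was the lower of its pair each time.

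Dlk1 (chr12:109452823-109463336) is the paternally expressed Notch-like ligand of the same cluster. It was at 7.49 and 9.57 RPKM in transdifferentiated cells, 0.582 and 1.69 RPKM in beta cells and 18.2 and 21.7 RPKM in delta cells, with no overlap between groups. Its log2 fold change was 2.20 (SE 0.26, adjusted p = 0.000934) against beta and -1.14 (SE 0.26, adjusted p = 0.033) against delta cells. The call against delta cells was lost with a pseudocount of 0.1 (adjusted p = 0.134), with no filter and without any 1 of the transdifferentiated or delta libraries. Rtl1 is a retrotransposon-derived gene read from the paternal copy and opposed by maternal antisense miRNAs. It stayed under the filter at 0.339 and 0.866 RPKM in transdifferentiated cells, 0.0292 and 0.0308 RPKM in beta cells and 0.408 and 0.251 RPKM in delta cells, with transdifferentiated and delta libraries overlapping. The ratio of Dlk1 to Meg3 was 0.0619 and 0.0742 in transdifferentiated cells, 0.0962 and 0.196 in beta cells and 0.166 and 0.313 in delta cells. Transdifferentiated cells had the lowest ratio in both pools. With 2 libraries a group an exact permutation test cannot reach a p under 0.05, so ratios are given as values only.

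At the Peg3 locus on chromosome 7 the transdifferentiated cells stood near delta cells for Peg3 itself, and below both delta libraries for Zim1 and Usp29. Peg3 (chr7:6703892-6730431) encodes a zinc finger protein from the paternal copy and was the most abundant of the 38 in every library. It was at 259 and 263 RPKM in transdifferentiated cells, 43.6 and 72.7 RPKM in beta cells and 278 and 256 RPKM in delta cells. Transdifferentiated and delta libraries overlapped, and both beta libraries were far below. Against beta cells the difference was 2.19 (SE 0.22, adjusted p = 0.00061) and against delta cells -0.03 (SE 0.22, adjusted p = 0.955). Zim1, a maternally expressed zinc finger gene next to it (chr7:6671269-6696450), was at 38.6 and 40.9 RPKM in transdifferentiated cells, 2.22 and 3.27 RPKM in beta cells and 52.2 and 45.2 RPKM in delta cells. Its contrast with beta cells, 3.46 (SE 0.16, adjusted p = 8.03e-05), was steeper than that of Peg3. Against delta cells Zim1 did not pass the test in limma (-0.28, SE 0.16, adjusted p = 0.319). The ratio of Zim1 to Peg3 was 0.149 and 0.156 in transdifferentiated cells, 0.0510 and 0.0450 in beta cells and 0.188 and 0.177 in delta cells. Usp29 is a deubiquitinase gene whose start lies 164 bases from that of Peg3 on the opposite strand. It was at 2.76 and 3.11 RPKM in transdifferentiated cells, 0.812 and 1.29 RPKM in beta cells and 4.23 and 4.43 RPKM in delta cells. Usp29 passed the test against beta (0.95, SE 0.15, adjusted p = 0.00275) and not against delta cells (-0.44, SE 0.15, adjusted p = 0.117), although both of its transdifferentiated values lay below both delta values.

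In the Prader-Willi and Angelman region of chromosome 7 the members differed from each other. Ndn (necdin, chr7:62346569-62350262) encodes a protein of the MAGE family known in neurons and is read from the paternal copy. Its values were 42.4 and 42.5 RPKM in transdifferentiated cells, 36.6 and 36.8 RPKM in beta cells and 70.0 and 70.0 RPKM in delta cells. It was the only tested member called against delta cells (-0.71, SE 0.10, adjusted p = 0.00577) and not against beta cells (0.20, SE 0.10, adjusted p = 0.118). The value against beta cells turned to -0.19 after scaling. Its call against delta cells was lost without the male (adjusted p = 0.0582) or the female delta library (adjusted p = 0.0689). Snrpn, encoding a small nuclear ribonucleoprotein of the spliceosome, was at 16.0 and 14.4 RPKM in transdifferentiated cells, 15.5 and 14.2 RPKM in beta cells and 21.3 and 19.4 RPKM in delta cells. Snrpn was called only in beta against delta cells (limma, -0.43, adjusted p = 0.0177), a call lost after scaling (adjusted p = 0.888). After scaling Snrpn was instead called lower in transdifferentiated than beta cells (-0.35, adjusted p = 0.04999). Ube3a is a ubiquitin ligase read from the maternal copy in mature neurons and from both copies in most other tissues. It was at 8.81 and 7.996 RPKM in transdifferentiated cells, 2.54 and 2.97 RPKM in beta cells and 9.59 and 8.55 RPKM in delta cells. It rose against beta cells (1.33, SE 0.12, adjusted p = 0.000463), with -0.10 (SE 0.12, adjusted p = 0.677) against delta cells. Snhg14, the noncoding RNA that runs against Ube3a, was at 1.07 and 1.11 RPKM in transdifferentiated cells, 0.0817 and 0.0487 RPKM in beta cells and 1.02 and 0.704 RPKM in delta cells. Of the Ube3a exon bases 27.3% are shared with Snhg14 and 2 other genes. Magel2, Mkrn3 and Peg12 of the same region were at 0.0379 RPKM or less in every library, and Snurf was listed at 0 in all 6. All 216 exon bases of Snurf are shared with Snrpn, and 3 reads of it would be 0.644 to 1.27 RPKM.

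Of the growth factor genes, Igf2 was highest in beta cells and Igf2r passed no test. Igf2, the paternally expressed growth factor next to Ins2, was at 0.795 and 0.898 RPKM in transdifferentiated cells, 1.55 and 1.49 RPKM in beta cells and 0.752 and 0.669 RPKM in delta cells. It was the only member called lower in transdifferentiated than beta cells in limma (-0.45, SE 0.13, adjusted p = 0.0248). That call was lost without any 1 of the transdifferentiated or beta libraries. Igf2 reached 1 RPKM only in the 2 beta libraries, so it was tested only because it was high there. The call is therefore no separate support for a higher level of Igf2 in beta cells. Of its exon bases 64.55% are shared with Gm49394 and Igf2os in GENCODE M21, so reads of Igf2 and of these genes cannot be fully told apart. H19, the maternal noncoding RNA of the same cluster, was listed at 0 in all 6 libraries, where 3 reads would be 0.0565 to 0.112 RPKM. Igf2r, maternally expressed, is the receptor that clears IGF2. It was at 27.6 and 24.8 RPKM in transdifferentiated cells, 17.1 and 27.7 RPKM in beta cells and 23.3 and 22.6 RPKM in delta cells. No comparison called it, and the 2 beta pools spanned all other libraries. Without the female beta library Igf2r was called against beta cells (0.59, adjusted p = 0.00796) and in beta against delta cells (-0.41, adjusted p = 0.0213), and without the male beta library both values changed sign. Its paternal antisense RNA Airn (chr17:12741311-12860136) was at 5.23 and 5.48 RPKM in transdifferentiated cells, 1.06 and 1.02 RPKM in beta cells and 5.10 and 4.33 RPKM in delta cells. Airn rose against beta cells (1.64, SE 0.12, adjusted p = 0.000242), and against delta cells its difference was 0.16 (SE 0.12, adjusted p = 0.475). The ratio of Airn to Igf2r was 0.190 and 0.221 in transdifferentiated cells, 0.0622 and 0.0369 in beta cells and 0.219 and 0.191 in delta cells.

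Plagl1 (Zac1, chr10:13060504-13131694) is a paternally expressed zinc finger factor whose excess causes transient neonatal diabetes in humans. It was at 3.95 and 4.48 RPKM in transdifferentiated cells, 0.812 and 1.36 RPKM in beta cells and 7.84 and 8.24 RPKM in delta cells. The groups did not overlap, with log2 fold changes of 1.33 (SE 0.16, adjusted p = 0.000943) against beta and -0.79 (SE 0.16, adjusted p = 0.0206) against delta cells. The call against delta cells was lost with a pseudocount of 0.1 (adjusted p = 0.0635), with no filter and without any 1 of the transdifferentiated or delta libraries. Grb10, an adaptor that dampens insulin and IGF1 receptor signalling, was at 12.1 and 11.1 RPKM in transdifferentiated cells, 8.40 and 8.62 RPKM in beta cells and 12.9 and 11.7 RPKM in delta cells. Its call against beta cells (0.41, SE 0.11, adjusted p = 0.0216) was lost after scaling (0.04, adjusted p = 0.769) and without any 1 of the transdifferentiated or delta libraries. Rasgrf1 is a calcium-responsive exchange factor for Ras that is known to act in beta cells. It was at 23.8 and 23.9 RPKM in transdifferentiated cells, 26.7 and 32.6 RPKM in beta cells and 19.8 and 18.2 RPKM in delta cells. Transdifferentiated cells lay below beta and above delta cells without overlap, yet the beta against delta difference alone passed the test (0.61, SE 0.13, adjusted p = 0.00631). Against beta cells the transdifferentiated value was -0.30 (adjusted p = 0.0906), called after scaling at -0.69 (adjusted p = 0.0027).

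In the Kcnq1ot1 domain of chromosome 7 Slc22a18, an organic cation transporter, was at 2.28 and 2.14 RPKM in transdifferentiated cells, 1.86 and 1.62 RPKM in beta cells and 2.92 and 3.16 RPKM in delta cells. Its only call was beta against delta cells (-0.56, adjusted p = 0.00759), lost after scaling (adjusted p = 0.122). Kcnq1ot1, the paternal noncoding RNA of the domain, stayed under the filter at 0.817 and 0.761 RPKM in transdifferentiated cells, 0.0341 and 0.0388 RPKM in beta cells and 0.757 and 0.528 RPKM in delta cells. Over its 93092 annotated exon bases these low densities stand for 953 and 772 reads in transdifferentiated cells, 68.4 and 73.9 reads in beta cells and 1196 and 771 reads in delta cells. In the fit without a filter it was higher in transdifferentiated than beta cells (0.79, SE 0.09, adjusted p = 0.00802), with 0.13 (SE 0.09, adjusted p = 0.527) against delta cells. Cdkn1c (p57Kip2) is the maternally expressed cyclin-dependent kinase inhibitor of this domain. Its values were 0.248 and 0.428 RPKM in transdifferentiated cells, 0.456 and 0.278 RPKM in beta cells and 0.244 and 0.363 RPKM in delta cells, with all groups overlapping. Ascl2 and Phlda2, genes of placental growth, were at 0.228 RPKM or less in every library.

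Nap1l5, Zrsr1 and Nnat sit inside introns of other genes, and these could be set against their hosts. Nap1l5 is a paternally expressed retrogene of the nucleosome assembly family inside Herc3. It was at 27.7 and 34.2 RPKM in transdifferentiated cells, 10.6 and 12.4 RPKM in beta cells and 19.7 and 23.1 RPKM in delta cells. Both transdifferentiated libraries lay above all 4 others. The difference was 1.35 (SE 0.15, adjusted p = 0.000791) from beta and 0.51 (SE 0.15, adjusted p = 0.0793) from delta cells. With the pool as a block the difference from delta cells passed (adjusted p = 0.0227). Relative to Herc3 its ratio was 4.16 and 4.82 in transdifferentiated cells, 3.15 and 2.47 in beta cells and 2.60 and 3.31 in delta cells. Zrsr1, a paternal retrogene of a splicing factor inside Commd1, was at 9.19 and 7.24 RPKM in transdifferentiated cells, 4.85 and 3.99 RPKM in beta cells and 10.3 and 10.9 RPKM in delta cells. Zrsr1 was called against beta cells (0.76, SE 0.15, adjusted p = 0.0057), a call that scaling removed (0.42, adjusted p = 0.0635), while Commd1 showed -0.20 (adjusted p = 0.174). Their ratio was 2.96 and 2.52 in transdifferentiated cells, 1.39 and 1.08 in beta cells and 3.67 and 3.93 in delta cells. Nnat (neuronatin), in an intron of Blcap, is a paternally expressed membrane peptide known to aid insulin processing in beta cells. It was at 8.59 and 9.03 RPKM in transdifferentiated cells, 3.85 and 4.73 RPKM in beta cells and 13.6 and 12.9 RPKM in delta cells. The groups were apart, with 0.90 (SE 0.12, adjusted p = 0.00165) against beta and -0.54 (SE 0.12, adjusted p = 0.034) against delta cells. The call against delta cells was lost with no filter (adjusted p = 0.0744) and without any 1 of the transdifferentiated or delta libraries. Blcap itself was at 22.9 and 21.8 RPKM in transdifferentiated cells, 20.6 and 21.7 RPKM in beta cells and 24.0 and 21.8 RPKM in delta cells. The ratio of Nnat to Blcap was 0.376 and 0.414 in transdifferentiated cells, 0.187 and 0.218 in beta cells and 0.569 and 0.593 in delta cells. Impact, a paternally expressed regulator of translation under amino acid shortage, was at 60.7 and 59.6 RPKM in transdifferentiated cells, 18.9 and 25.7 RPKM in beta cells and 67.5 and 65.8 RPKM in delta cells. Impact rose against beta cells (1.41, SE 0.15, adjusted p = 0.000705), with -0.15 (SE 0.15, adjusted p = 0.606) against delta cells.

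**Figure D2:**
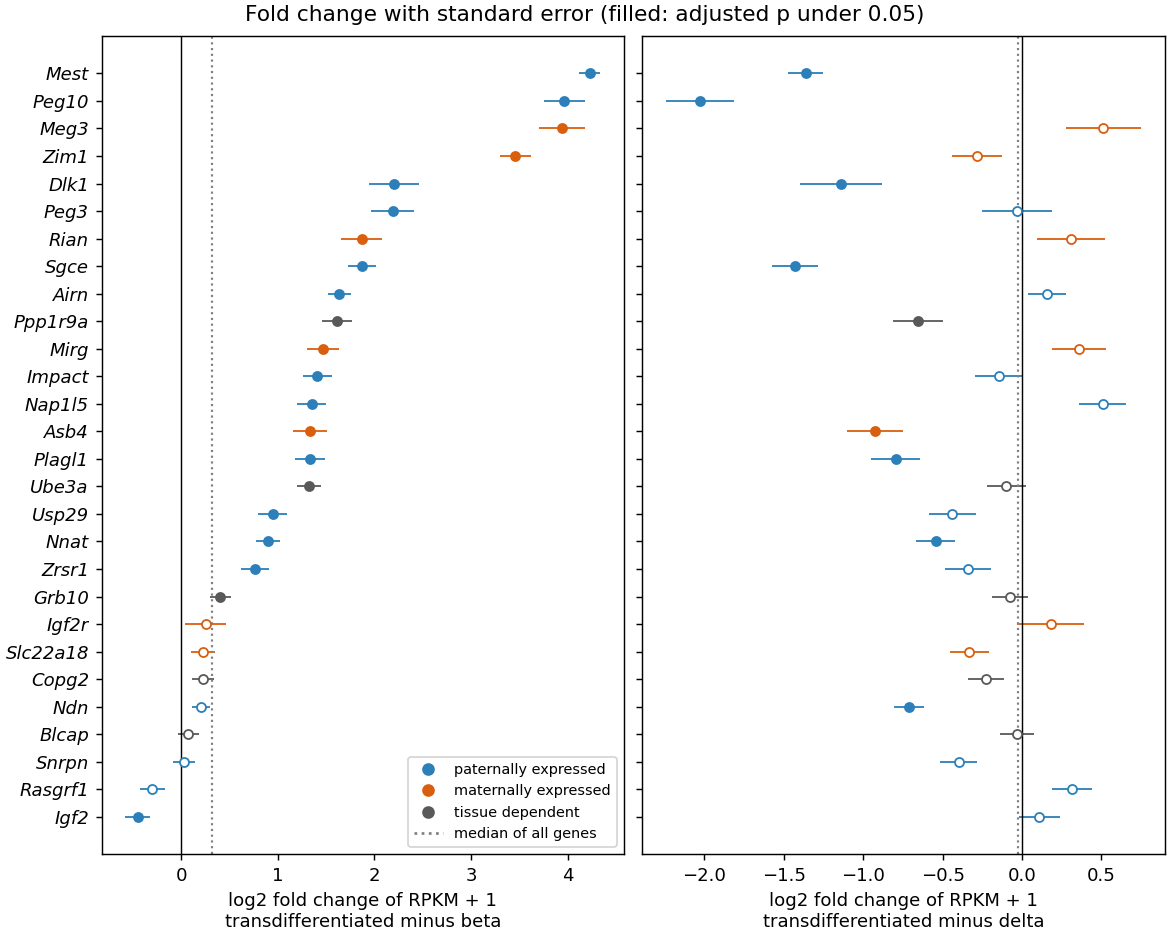
Log2 fold change of RPKM + 1 with its standard error for the 28 tested members, transdifferentiated minus beta cells on the left and transdifferentiated minus delta cells on the right, filled where adjusted p was under 0.05 and coloured by parental class. Values against beta cells run from -0.45 (Igf2) to 4.23 (Mest), and the filled points against delta cells all lie below 0, 7 of 9 of them paternally expressed genes.

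By parental class, 12 of the 16 tested paternal genes were higher and 1 was lower in transdifferentiated than in beta cells (median log2 fold change 1.34). Of 7 maternal genes 5 were higher and none lower (1.47), and of 5 tissue-dependent genes 3 were higher and none lower (0.41). No further member was lower at an unadjusted p under 0.05 in limma, where 7565 of the 13022 genes passed in either direction. Against delta cells 7 paternal genes (Peg10, Mest, Plagl1, Dlk1, Nnat, Ndn and Sgce), 1 maternal gene (Asb4) and 1 tissue-dependent gene (Ppp1r9a) were lower, and the medians were -0.42, 0.18 and -0.10. In beta against delta cells 14 paternal genes were lower and 2 higher, 6 maternal genes were lower and 4 tissue-dependent genes were lower, with medians of -1.46, -1.56 and -0.48. After scaling the paternal count in transdifferentiated against beta cells was 11 higher and 3 lower, the maternal count stayed at 5 and 0, and the tissue-dependent count was 2 and 1. Over all genes 42.5% were higher and 8.46% lower in transdifferentiated against beta cells (27.8% and 26.1% after scaling). Against delta cells 5.53% were higher and 7.2% lower, and in beta against delta cells 11.7% and 46.3% were. The median log2 fold changes over all genes were 0.32, -0.03 and -0.36 in these comparisons. Members of 1 locus share a control region and are not independent of each other, and the difference between classes was not tested.

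The called directions put the members into few patterns. A set of 8 (Peg10, Mest, Plagl1, Dlk1, Nnat, Sgce, Asb4 and Ppp1r9a) were higher in transdifferentiated than beta cells and lower than in delta cells, as were 5.34% of all genes. Of these 8 only Peg10, Sgce and Mest kept the call against delta cells under all 10 alternatives. Another 12 (Peg3, Meg3, Rian, Mirg, Grb10, Zim1, Impact, Nap1l5, Zrsr1, Airn, Usp29 and Ube3a) were higher than in beta cells with no call against delta cells, as were 35.5% of all genes. That lack of a call does not show equal levels: among these 12 the difference from delta cells ran from -0.44 for Usp29 to 0.51 for Meg3 and Nap1l5.

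On the linear scale the level of transdifferentiated cells can be given as its distance from beta cells (0%) towards delta cells (100%). Over the 24 members called lower in beta than delta cells the median position was 55.6% (quartiles 38.8% and 91.4%), and over all 6025 such genes it was 79.3% (quartiles 48.6% and 110%). Ndn (17.1%), Peg10 (22.9%), Sgce (29.9%), Mest (37.6%), Dlk1 (39.3%), Asb4 (40.0%) and Plagl1 (45.0%) lay nearer the beta level. So did Snrpn (6.38%), Slc22a18 (35.8%) and Copg2 (45.6%), whose calls in beta against delta cells were lost after scaling. The positions of the delta markers were 23.7% for Sst, 30.5% for Rbp4, 33.8% for Ghsr, 35.9% for Hhex and 36.2% for Ptprz1. Nnat (50.3%), Ppp1r9a (53.7%), Usp29 (57.5%), Zrsr1 (61.5%) and Zim1 (80.5%) lay past the middle. So did Grb10 (81.9%), whose call in beta against delta cells was lost after scaling. Impact (85.3%), Ube3a (89.4%) and Peg3 (97.1%) were close to the delta level, and Airn (118%), Rian (134%), Meg3 (143%), Mirg (149%) and Nap1l5 (196%) lay beyond it. The male and female pools gave 39.2% and 39.3% for Dlk1 and 17.3% and 17.0% for Ndn, but 111% and 198% for Meg3, whose female delta library was the lower one. After scaling, Ndn moved to -31.1% and Nap1l5 to 268%, while Peg10 (23.2%), Mest (38.1%), Peg3 (99.3%) and Meg3 (148%) moved little.

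**Figure D3:**
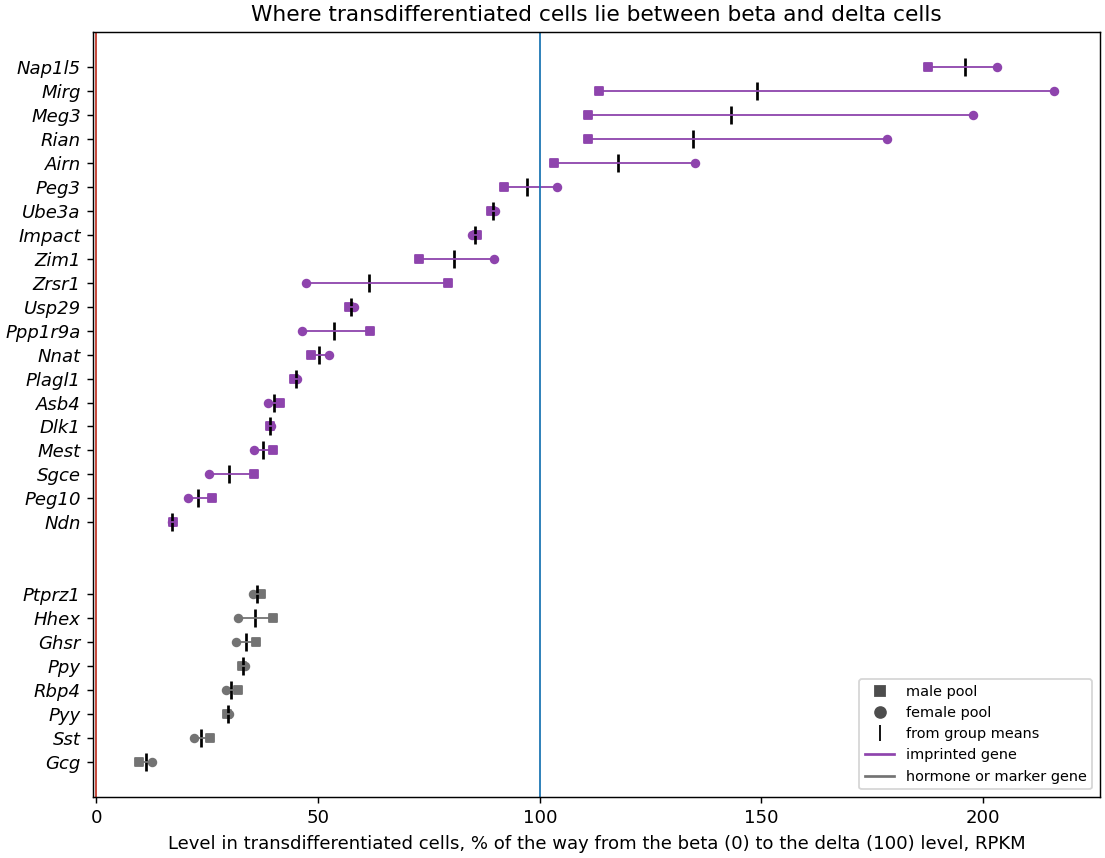
Position of the transdifferentiated level between the beta level (0) and the delta level (100), in % of the RPKM difference, for the 20 members whose call in beta against delta cells holds after scaling and for 8 hormone or marker genes, by pool and from group means. Members spread from 17.1% (Ndn) to 196% (Nap1l5), whereas the marker genes lie between 11.2% (Gcg) and 36.2% (Ptprz1).

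Against the midpoint of beta and delta cells on the log2 scale, 11 of the 28 members were higher in transdifferentiated cells and none was lower (limma). Over all genes 18.6% were higher and 1.76% lower. At an unadjusted p under 0.05 in limma 12 members were higher and 1 (Ndn) was lower, where 4874 of the 13022 genes passed in either direction. After scaling 11 members were higher and 1 (Ndn) was lower, where 12.5% and 7.95% of all genes were. The largest differences from the midpoint were 2.22 (SE 0.21, adjusted p = 0.00412) for Meg3, 1.59 (SE 0.14, adjusted p = 0.0039) for Zim1 and 1.43 (SE 0.10, adjusted p = 0.00249) for Mest. Rian (1.09), Peg3 (1.08), Peg10 (0.97), Nap1l5 (0.93), Mirg (0.91), Airn (0.90), Impact (0.63) and Ube3a (0.61) were the others. The scale matters here: Mest and Peg10, above the midpoint in log2 values, lay at 37.6% and 22.9% on the linear scale, with beta levels under 0.5 RPKM. The 5 delta markers were also above the log2 midpoint, as were the PP markers Ppy and Pyy. So were 6 of 8 beta markers (Ins1, Ins2, Ucn3, Nkx6-1, Slc2a2 and G6pc2), with no call for Mafa and Iapp. Of the 5 alpha markers none was above it and 2 (Irx1 and Ttr) were below. Leaving out either transdifferentiated library lowered the number of calls against the midpoint, both among the members and over all genes.

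Within clusters the maternal noncoding RNAs did not keep a fixed proportion. The ratio of Rian to Meg3 was 0.430 and 0.405 in transdifferentiated cells, 1.80 and 1.96 in beta cells and 0.438 and 0.528 in delta cells. For Mirg to Meg3 it was 0.0602 and 0.0568 in transdifferentiated cells, 0.332 and 0.232 in beta cells and 0.0607 and 0.0643 in delta cells. Beta cells thus stood apart in both ratios, with less Meg3 relative to its neighbours, and transdifferentiated cells lay next to delta cells. The ratio of Usp29 to Peg3 was 0.0107 and 0.0118 in transdifferentiated cells, 0.0186 and 0.0178 in beta cells and 0.0152 and 0.0173 in delta cells, lowest in transdifferentiated cells in both pools.

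**Figure D4:**
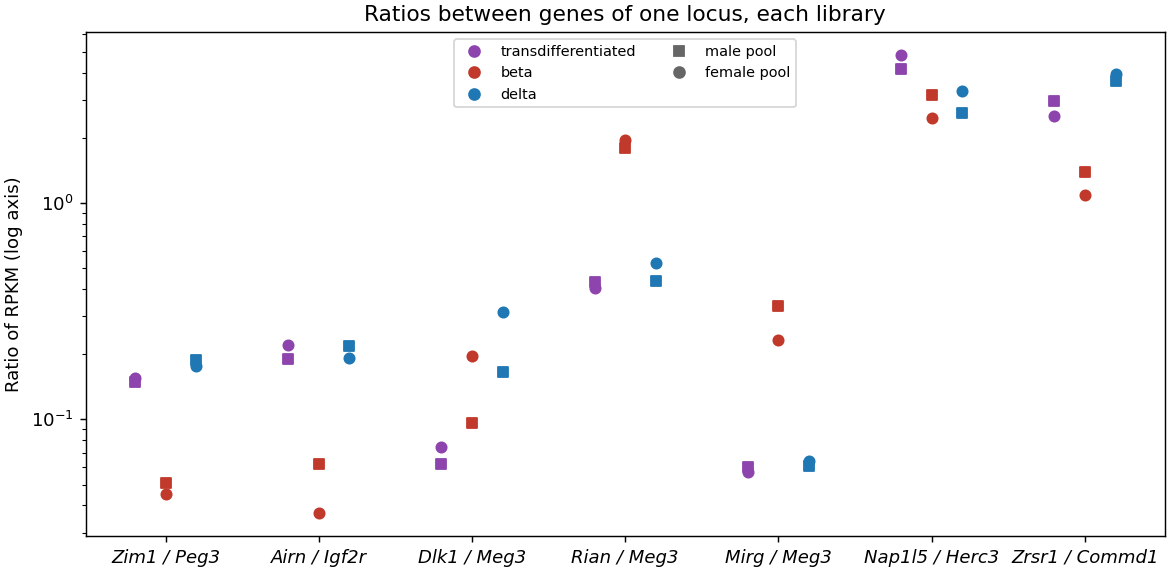
Ratios of RPKM (log axis) between genes of 1 locus in each library, with squares for male and circles for female pools. Beta libraries (red) are lowest for Zim1 to Peg3, Airn to Igf2r and Zrsr1 to Commd1 and highest for Rian to Meg3 and Mirg to Meg3, while transdifferentiated libraries are lowest for Dlk1 to Meg3.

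Between pools, 16 of the 28 members were higher in the female than the male library in transdifferentiated cells, 21 in beta cells and 13 in delta cells. Over all tested genes 46.1%, 64.8% and 44.3% were higher in the female library of those groups. The sign of the difference was the same in all 3 groups for 8 members (28.6%), where it was for 31.7% of all tested genes. Of these, Peg10, Plagl1, Dlk1, Nap1l5, Asb4 and Usp29 were higher in the female library, Snrpn was lower and Ndn differed by at most 0.010. The largest gaps between pools were in beta cells, at 0.76 for Dlk1, 0.73 for Peg3 and 0.67 for Igf2r on the log2(RPKM + 1) scale, and sex cannot be told apart from pool with 1 pool of each.

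A further list held 42 imprinted genes in the table, 23 of them tested. In transdifferentiated against beta cells 13 were higher and 3 lower (median 0.51, against 0.32 over all genes), where 42.5% and 8.46% of all genes were. After scaling 9 were higher and 8 lower (median 0.14), where 27.8% and 26.1% of all genes were. Against delta cells 4 were higher and 5 lower, where 5.53% and 7.2% of all genes were. After scaling 3 were higher and 4 lower than in delta cells, where 5.94% and 6.43% of all genes were. Atp10a, Snhg14, Nespas, Mir335 and Mir344-2, called higher than in beta cells, were under 1 RPKM in both beta libraries. They passed the filter only through the other libraries. Zdbf2, paternally expressed and active in the hypothalamus, was at 16.2 and 14.1 RPKM in transdifferentiated cells, 2.03 and 2.70 RPKM in beta cells and 26.2 and 23.9 RPKM in delta cells. Gnas encodes the stimulatory G protein alpha subunit. It was at 12.3 and 15.8 RPKM in transdifferentiated cells, 2.47 and 2.62 RPKM in beta cells and 33.6 and 35.7 RPKM in delta cells, with a log2 difference from delta cells of -1.25 (SE 0.14, adjusted p = 0.00283). Ddc, an aromatic amino acid decarboxylase imprinted in the heart and next to Grb10, had the opposite order, with 55.1 and 67.6 RPKM in transdifferentiated cells, 74.0 and 93.6 RPKM in beta cells and 7.13 and 8.65 RPKM in delta cells. It was higher than in delta cells by 2.81 (SE 0.17, adjusted p = 0.000447), and so was Slc38a4, an amino acid transporter, by 1.31 (SE 0.13, adjusted p = 0.0021). The hairpin Mir344-2 was at 20.9 and 40.1 RPKM in transdifferentiated cells, 0.580 and 0.611 RPKM in beta cells and 13.3 and 13.6 RPKM in delta cells, values that rest on a short locus with similar copies nearby.

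Of 24 genes that act in setting, reading or keeping DNA methylation and imprints, 17 were tested. Against beta cells 13 of them were higher and none lower in transdifferentiated cells (median 0.63), where 42.5% and 8.46% of all genes were. After scaling 8 were higher and 2 lower (Trim28 and Ehmt2), where 27.8% and 26.1% of all genes were. Tet1, called higher with and without scaling, was under 1 RPKM in both beta libraries, so it passed the filter only through the other libraries. Against delta cells none of the 17 was called in either direction, where 5.53% of all genes were higher and 7.2% lower. Scaling left this at none, where 5.94% and 6.43% of all genes were. At an unadjusted p under 0.05 in limma 1 was higher (Dnmt3b) and 1 lower (Arid4a), where 3466 of the 13022 genes passed in either direction. Zfp445 is a zinc finger protein that keeps imprints together with ZFP57. It was at 30.8 and 30.1 RPKM in transdifferentiated cells, 4.62 and 8.07 RPKM in beta cells and 27.4 and 22.5 RPKM in delta cells. It was higher than in beta cells by 2.14 (SE 0.23, adjusted p = 0.000672). Tet2, which oxidises methylated cytosine, was higher by 1.83 (SE 0.19, adjusted p = 0.000681) and Arid4b, a chromatin protein of the Snrpn control region, by 1.77 (SE 0.15, adjusted p = 0.000338). Zfp57 itself was at 0.211 and 0.194 RPKM in transdifferentiated cells, 0.0122 and 0 RPKM in beta cells and 0.234 and 0.135 RPKM in delta cells, under the filter throughout.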

How the data were processed

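The authors deposited RPKM values per gene symbol for 6 libraries of islet cells, made with the TruSeq RNA v2 kit after overnight culture in 5.5 mM glucose, per the labels' protocols. STAR 2.5, featureCounts, edgeR 3.14.0 and the build GRCm38.p4 are named in the submitters' processing notes, without settings. Of 46959 rows, 27 with symbols turned into dates were left out. Low values are whole multiples of 1 read, which with GENCODE M21 exon lengths gave the depths (83.4% to 86.4% of values under 50 reads whole within 0.01). log2(RPKM + 1) was fitted by limma 3.58.1 under R 4.3.3 (trend method, group means, all 6 libraries, 2-sided, Benjamini-Hochberg over 13022 genes), which was tested on simulated data. This scale understates the change of low genes. RPKM being no counts, no count model was run. Per the series text the groups come from the same islets, so pools pair libraries: same-pool deviations correlated at 0.47 (transdifferentiated and beta), 0.36 (transdifferentiated and delta) and 0.24 (beta and delta). Separate cultures are not named, so p-values measure only the spread between pools. The series text in one place gives alpha cells as the origin of the cells with both labels; the title and sample labels give delta cells and were followed. All members past the filter are named; of further lists, the called genes with the 3 largest fold changes in a comparison, or examples. 1 marker gene is not reported here. Members and lists were chosen with earlier results of these data known. Alternatives were a pseudocount of 0.1, no filter, median-of-ratios scaling, the pool as a block and leaving out each library.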

Additional observations from a re-analysis of the deposited data

How the results depend on the processing

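With 2 libraries a group, few calls of moderate size against delta cells survive the loss of 1 library. The number of members called in transdifferentiated against delta cells was 5 with a pseudocount of 0.1, 4 with no filter on low values and 3 to 10 when 1 library was left out, and only Peg10, Sgce and Mest were called under all 10 alternatives. The number of genes called was 4132 to 7086 against beta cells, 522 to 2055 against delta cells and 137 to 4429 against the midpoint when 1 library was left out, and 1349 against the midpoint with no filter. Members called against the midpoint numbered 3 to 16 without 1 library. Median-of-ratios scaling changed the share of higher genes among those called from 83.4% to 51.6% in transdifferentiated against beta cells, from 20.2% to 48.4% in beta against delta cells and from 91.4% to 61.1% against the midpoint. It turned the sign in transdifferentiated against beta cells for Ndn (-0.19), Snrpn (-0.35), Igf2r (-0.14), Blcap (-0.31), Slc22a18 (-0.044) and Copg2 (-0.16). Of these, Snrpn (adjusted p = 0.04999) and Blcap (adjusted p = 0.0326) were called lower after scaling in limma. In beta against delta cells it turned the sign for Igf2r (0.34) and Blcap (0.30, adjusted p = 0.0335). None of these values had been called without scaling. When 1 library was left out, values not called over all 6 libraries ran across 0 for Snrpn (-0.038 to 0.10) and Igf2r (-0.081 to 0.59) against beta cells, for Peg3 (-0.091 to 0.029) and Blcap (-0.098 to 0.032) against delta cells, and for Igf2r in beta against delta cells (-0.41 to 0.26); of these the 0.59 and the -0.41 of Igf2r, without the female beta library, were called. The cause of these changes was not tested.

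With the pool as a replicate block, 7022 genes and 21 members were called against beta cells, 1925 genes and 10 members against delta cells, 7890 genes and 26 members in beta against delta cells and 2970 genes and 13 members against the midpoint. Among the members of the pairwise comparisons the block changed 1 call, that of Nap1l5 against delta cells (adjusted p = 0.0227). The lowest beta values, 4 to 19 reads for Sgce and Peg10, carry large counting error, and H19 and Snurf are limited by the 3-read floor.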

Other observations

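Genes of the insulin-like growth factor axis, 16 listed and 8 tested, gave 3 higher and 1 lower in transdifferentiated than beta cells, where 42.5% and 8.46% of all genes were. After scaling 2 were higher and 1 lower, with a median of -0.03, where 27.8% and 26.1% of all genes were. Igfbp7, a secreted binding protein, was at 110 and 128 RPKM in transdifferentiated cells, 39.1 and 49.3 RPKM in beta cells and 229 and 256 RPKM in delta cells. In limma the difference was 1.42 (SE 0.15, adjusted p = 0.000675) from beta and -1.02 (SE 0.15, adjusted p = 0.00761) from delta cells. Igf1r, the receptor for IGF1 and IGF2, was at 45.1 and 38.9 RPKM in transdifferentiated cells, 33.4 and 56.7 RPKM in beta cells and 19.7 and 21.0 RPKM in delta cells, higher than in delta cells by 1.01 (SE 0.23, adjusted p = 0.037). Insr, the insulin receptor, was higher than in beta cells by 0.78 (SE 0.15, adjusted p = 0.00604). Igf1 and 4 of the binding protein genes (Igfbp1, Igfbp2, Igfbp3 and Igfbp6) were at 0.637 RPKM or less in every library.

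Protein-coding genes within 250 kb of a member that were neither members nor on the further list of imprinted genes numbered 87, of which 43 were tested. Whether any of the 87 is imprinted was not checked beyond that. They include Ins2 and Commd1. In transdifferentiated against beta cells 18 were higher and 7 lower (median 0.21, against 1.33 for the members and 0.32 for all genes), where 42.5% and 8.46% of all genes were. After scaling 12 were higher and 16 lower, with a median of -0.14, where 27.8% and 26.1% of all genes were. Beside Peg10 and Sgce, Pdk4, a kinase that inhibits pyruvate dehydrogenase, was at 2.11 and 2.01 RPKM in transdifferentiated cells, 0.119 and 0.348 RPKM in beta cells and 13.01 and 12.3 RPKM in delta cells, the same order as its imprinted neighbours. Gm38393, a gene model that shares exons with Snrpn and Snurf, was at 3.21 and 2.90 RPKM in transdifferentiated cells, 0.0800 and 0.150 RPKM in beta cells and 2.81 and 1.76 RPKM in delta cells, unlike Snrpn itself. Pdk4 and Gm38393 were under 1 RPKM in both beta libraries, so they passed the filter only through the other libraries. Trpm5, a cation channel of beta cells near Kcnq1ot1, had the opposite order, with 4.51 and 4.36 RPKM in transdifferentiated cells, 12.3 and 11.7 RPKM in beta cells and 0.212 and 0.259 RPKM in delta cells.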
